A study of Mus musculus with 4 samples.

Results

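Sorcs3 and Sorcs1 are neighbouring mouse genes for sorting receptors, and the contacts described here are the H3K27ac HiChIP interactions listed at their loci in cortical interneurons. A contact was taken when at least 1 of its anchors overlapped, by 1 bp, the window given for Sorcs3 (mm9, chr19:48200000-48950000) or the window given for Sorcs1 (mm9, chr19:50150000-50850000). The rule found 67 of the 6733 interactions listed for vasoactive intestinal peptide (VIP) interneurons, 61 at Sorcs3 and 6 at Sorcs1, and 0 of the 8278 listed for somatostatin (SST) interneurons. The loci were chosen because earlier work on these lists had shown this difference, so the counts are a description and were not tested.

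The nuclei came from the cortex of adult C57BL/6 mice that carried a Sun1 nuclear envelope tag together with Vip-cre, which marks VIP interneurons, or Sst-cre, which marks SST interneurons. Tagged nuclei were captured by INTACT, their chromatin was crosslinked and cut with MboI, and contacts carrying acetylated histone H3 lysine 27, a mark of active promoters and enhancers, were enriched with an antibody. The labels name 2 samples per cell type, and the values below come from 1 list each of VIP and SST contacts, so there is no spread between animals. Each list describes the nuclei that the driver marks, the number of animals pooled is not stated, and a contact made in more nuclei cannot be told apart from a stronger contact in each. Cell identity was not checked against marker genes, because an mm9 annotation was not used here.

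The SorCS proteins belong to the family of VPS10 domain receptors, with sortilin and SorLA. They are membrane proteins with a single transmembrane segment that bind cargo through their luminal or extracellular part and route it between the Golgi, the cell surface and endosomes. In neurons SorCS1 is known for sorting neurexin, AMPA receptors and the amyloid precursor protein, and SorCS3 is a postsynaptic protein needed for long-term depression in mouse hippocampus. In the RefSeq gene order of GRCm38.p6, no protein-coding gene lies between Sorcs3 and Sorcs1, and 3 pseudogenes (Gm6975, Siah1-ps1 and Rpl13a-ps1) do. The next protein-coding genes on the Sorcs3 side are Cfap58, Itprip and Gsto2, and those on the Sorcs1 side are Ins1, Xpnpep1 and Add3.

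The gene starts differ in base composition and strand. They are shown because the most linked anchor in each window stood at an end of the anchors there. This was the low-coordinate end at Sorcs3 and the high-coordinate end at Sorcs1, where 1 further linked anchor lies above the window. The 300 bases around each start, 250 before and 50 after, are from RefSeq, build GRCm38.p6, and run 5′ to 3′ in the direction of transcription, with every CG in capitals. Sorcs3 lies on the plus strand (chr19:48205775-48206074) and Sorcs1 on the minus strand (chr19:50678597-50678896). These coordinates cannot be laid onto the mm9 anchors.
Sorcs3: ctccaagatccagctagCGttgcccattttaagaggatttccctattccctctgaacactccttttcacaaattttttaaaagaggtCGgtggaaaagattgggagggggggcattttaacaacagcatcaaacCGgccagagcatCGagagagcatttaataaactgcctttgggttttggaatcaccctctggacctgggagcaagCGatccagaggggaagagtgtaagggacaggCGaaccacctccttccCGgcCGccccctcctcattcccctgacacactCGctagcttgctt
Sorcs1: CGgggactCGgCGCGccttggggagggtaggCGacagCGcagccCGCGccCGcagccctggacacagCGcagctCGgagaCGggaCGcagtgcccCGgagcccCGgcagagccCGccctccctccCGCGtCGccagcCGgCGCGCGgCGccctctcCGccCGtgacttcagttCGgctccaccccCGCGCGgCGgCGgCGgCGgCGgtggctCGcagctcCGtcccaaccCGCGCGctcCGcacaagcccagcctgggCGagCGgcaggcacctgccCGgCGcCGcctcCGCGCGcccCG

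The Sorcs3 start holds 9 CG dinucleotides and is 51.0% G or C, and the Sorcs1 start holds 50 and is 80.7% G or C. Across 32851 promoters of the same length the median was 7 CG and 52.7% G or C. As many CG as at Sorcs3, or more, are held by 45.8% of them, and as many as at Sorcs1, or more, by 0.855%. GATC, the letters that MboI cuts, occurs 2 times in the Sorcs3 sequence and 0 times in the Sorcs1 sequence, and 48.0% of all promoters hold it at least 1 time. It reads the same on both strands, and 1 of the Sorcs3 matches overlaps a CG. GGGCGG, read on either strand, occurs 1 time at Sorcs3 and 2 times at Sorcs1 (35.7% of promoters hold it). CCAAT, read on either strand, occurs 1 time at Sorcs3 and 0 times at Sorcs1 (37.4%). TATAAA on either strand occurs in neither (13.6%).

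The first comparison asked where the interneuron classes differ in acetylated contacts at these genes. At Sorcs3 the VIP list held 61 interactions, or 9.06 per 1000 of the list (exact Poisson interval 6.93 to 11.6), and the SST list held 0. At Sorcs1 the VIP list held 6, or 0.891 per 1000 (0.327 to 1.94), and the SST list held 0. No fold is given against a list at 0. The intervals, at 95%, reflect counting error alone and treat interactions as independent even where they share an anchor. Read depth is unknown, so a contact without a call in SST may be absent or may lie below the calling threshold.

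No SST anchor overlapped either window, nor any of the 21 VIP anchors of the members. Each of the 67 member interactions therefore had both anchors outside the SST anchor set, against 33.9% of all VIP interactions. The loci were chosen for the absence of SST interactions, so this share restates the choice and is not an enrichment. The nearest SST anchors ended at 47095375, 1105 kb below the Sorcs3 window, and started at 56655345, 5805 kb above the Sorcs1 window. This stretch of 9.56 Mb is the longest on chromosome 19 between neighbouring SST anchors and ranks 36th of 5822 such stretches in the SST list. It holds 69 VIP interactions, of which 67 are at Sorcs3 and Sorcs1. Among the 36 SST stretches at least as long, 21 hold any VIP interaction, the median is 1.5, and the next highest holds 48. The loci were chosen for many VIP and no SST interactions, and the length cut is that of their own stretch. Their place above the other stretches is therefore a description. Chromosome 19 has 145 VIP and 169 SST interactions, so the members make up 46.2% of its VIP interactions (exact binomial interval 37.9 to 54.7%). Without them 78 VIP interactions remain. The share of 46.2% follows from choosing loci with many VIP interactions, and its interval treats interactions as independent.

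**Figure D1:**
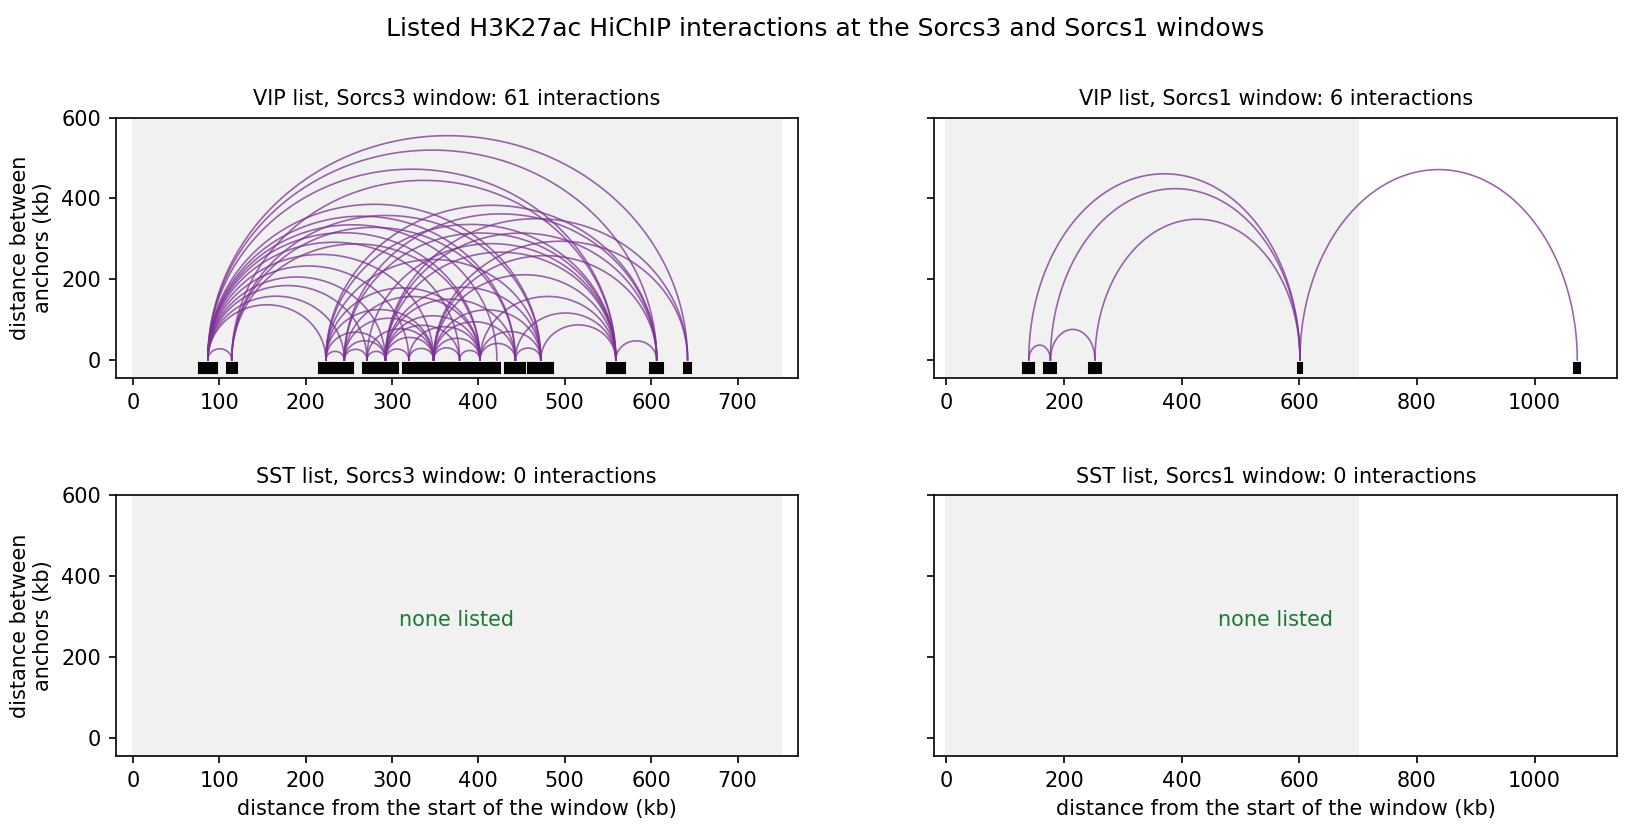
Arcs join the anchors of each listed interaction (black boxes, to scale), with distance from the start of the window in kb on the x axis, arc height showing the distance between anchors in kb, and the window in grey. The VIP list has 61 arcs at Sorcs3 and 6 at Sorcs1, of which 1 leaves the window, and the SST list has none in either window.

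Set beside windows of equal length along the genome, Sorcs3 was among the richest in VIP interactions. Of 1094 windows of 750 kb with a VIP interaction, 0.914% held 61 or more, which is 10 windows, including the window that lies over Sorcs3 itself. Of these 10, 2 had no SST interaction, the other being on chromosome 4 from 75000001 to 75750000 with 63 VIP interactions. Of the 334 windows of 750 kb with 20 or more interactions in all, 9.88% were VIP-filled, with SST giving no more than 10% of the interactions, 20.1% were SST-filled by the same rule, and 5.09% had no SST interaction. The Sorcs1 count was a common one: 41.4% of the 1126 windows of 700 kb with a VIP interaction held 6 or more. Of those 466 windows, 18.2% had no SST interaction. The members were chosen on these counts, so nothing further is read from them.

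**Figure D2:**
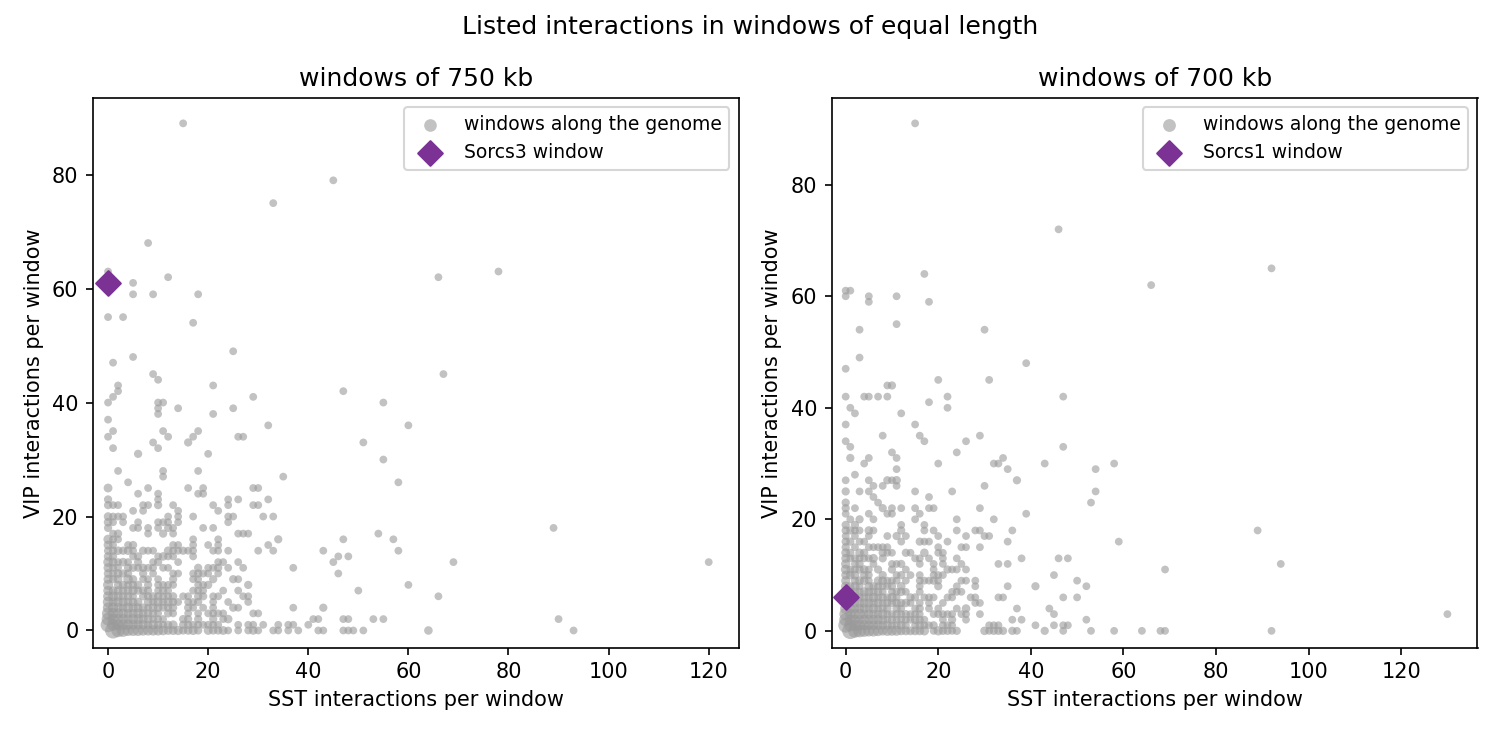
Each grey point is a window of 750 kb (left) or 700 kb (right) tiled along the genome, placed by its number of SST interactions (x axis) and VIP interactions (y axis), larger where several windows coincide. The diamonds mark Sorcs3, with 61 VIP and 0 SST interactions, and Sorcs1, with 6 VIP and 0 SST interactions.

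At Sorcs3 the 61 interactions joined 16 anchors, all inside the window, from 48276320 to 48846600. None reached outside the window, and none of these anchors had an interaction with any anchor beyond it. The next VIP anchors lay 1150 kb below the window and 1331 kb above it, where the first anchor of Sorcs1 begins. No interaction joined the loci: 1.43 Mb without a VIP anchor separates their anchors, and the longest distance in the VIP list is 995 kb. The 16 anchors cover 313 kb, or 54.8% of the 570 kb that they span. Their widths ran from 7.69 to 43.3 kb with a median of 18.0 kb, against 12.4 kb over the VIP list. Wider anchors had more interactions over the VIP list, and the locus was chosen for many interactions, so this difference is a description.

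The anchor with the most contacts at Sorcs3 was the first one, chr19:48276320-48297473, at the low-coordinate end. It had an interaction with each of the other 15 anchors, at distances of 27.7 to 555 kb. Sorcs3 is transcribed towards higher coordinates, so this is the end of the window on the side of the gene's start, although which anchor holds the start was not determined. The anchors at chr19:48477654-48507116 and chr19:48526564-48569831 had 13 interactions each, and each lacked only the same 2 partners, anchors 2 and 11 in order of coordinate. The anchors at chr19:48586987-48616777 and chr19:48749022-48769260 had 11 each. An anchor with 10 or more interactions is a busy one in this list, where 4.27% of 4850 anchors reach that number and the median is 2. At Sorcs3 these were 5 of 16 anchors, or 31.3%, and the median was 7.5. The locus was chosen for its many VIP interactions, so both values follow that choice and are a description.

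Most interactions at Sorcs3 involved at least 1 of these 5 anchors. All 10 pairs among them were listed, and 53 of the 61 interactions (86.9%) had at least 1 of them, which leaves 8 between the other 11 anchors. The 5 were picked for their number of interactions, so a high share follows from that choice. The least linked anchor, chr19:48617641-48625329, had 1 interaction, with the first anchor, 335 kb away. The gap between its edge and that of an anchor with 11 interactions was 0.864 kb, and no link between them was listed. Their midpoints lay 421.5 and 401.9 kb above the start of the window. That is closer than the shortest interaction listed at Sorcs3, 21.3 kb between midpoints. The last anchor, chr19:48837740-48846600, had 3, with the first anchor and with the pair that had 13. The other 9 anchors had between 4 and 8 interactions each.

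**Figure D3:**
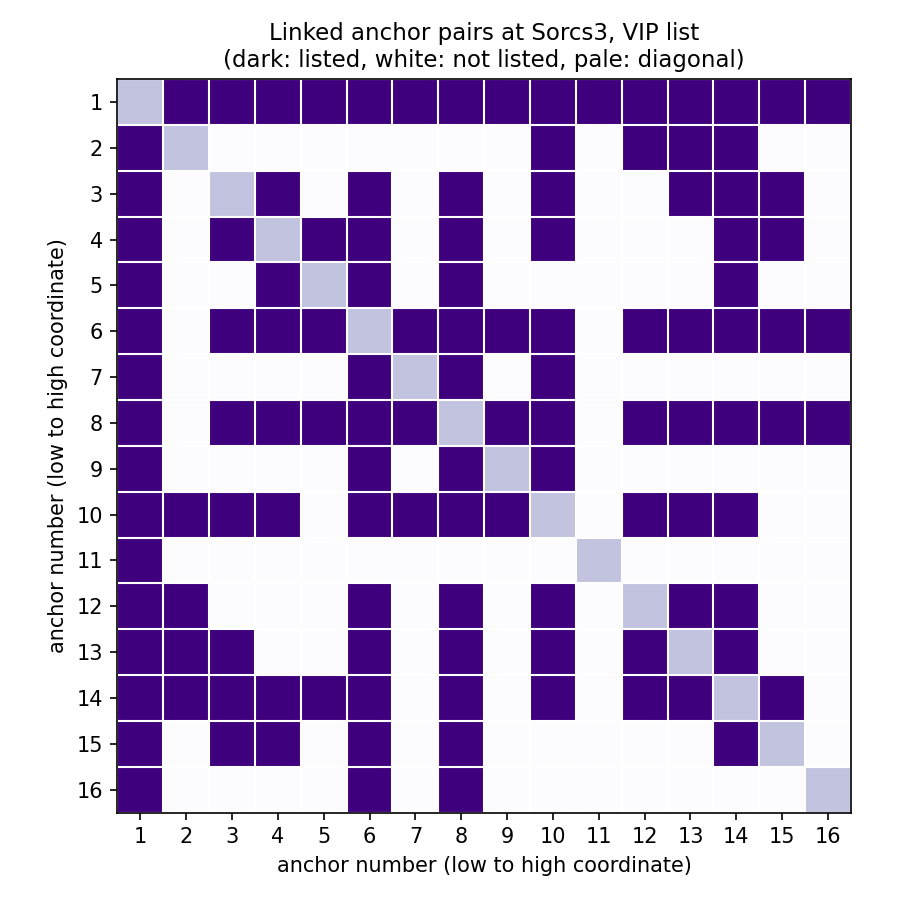
The 16 Sorcs3 anchors of the VIP list are numbered from low to high coordinate on both axes, and a dark square marks a listed interaction between 2 of them. The row of anchor 1 is filled throughout, anchors 6 and 8 each lack 2 partners, and the row of anchor 11 has 1 link.

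Wide anchors had more interactions at Sorcs3 and over the VIP list. Across the 16 anchors, width and number of interactions had a Spearman correlation of 0.86, and across all VIP anchors it was 0.63. Across the 4 anchors in the Sorcs1 window it was -0.32. These are values over anchors of 1 list, which share interactions and are not replicates. The anchor with 15 interactions was 21.2 kb wide, less than the anchors with 13 interactions (29.5 and 43.3 kb) or the anchor with 11 at chr19:48586987-48616777 (29.8 kb). Neighbouring anchors lay close together: 7 of the 15 gaps were no more than 5 kb, and the gaps ran from 0.601 to 95.3 kb. When anchors within 5 kb were merged, Sorcs3 had 9 anchors and 27 interactions, and 2 anchors, the first included, were linked to all 8 others. The part of anchor width in the number of interactions was not tested.

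**Figure D4:**
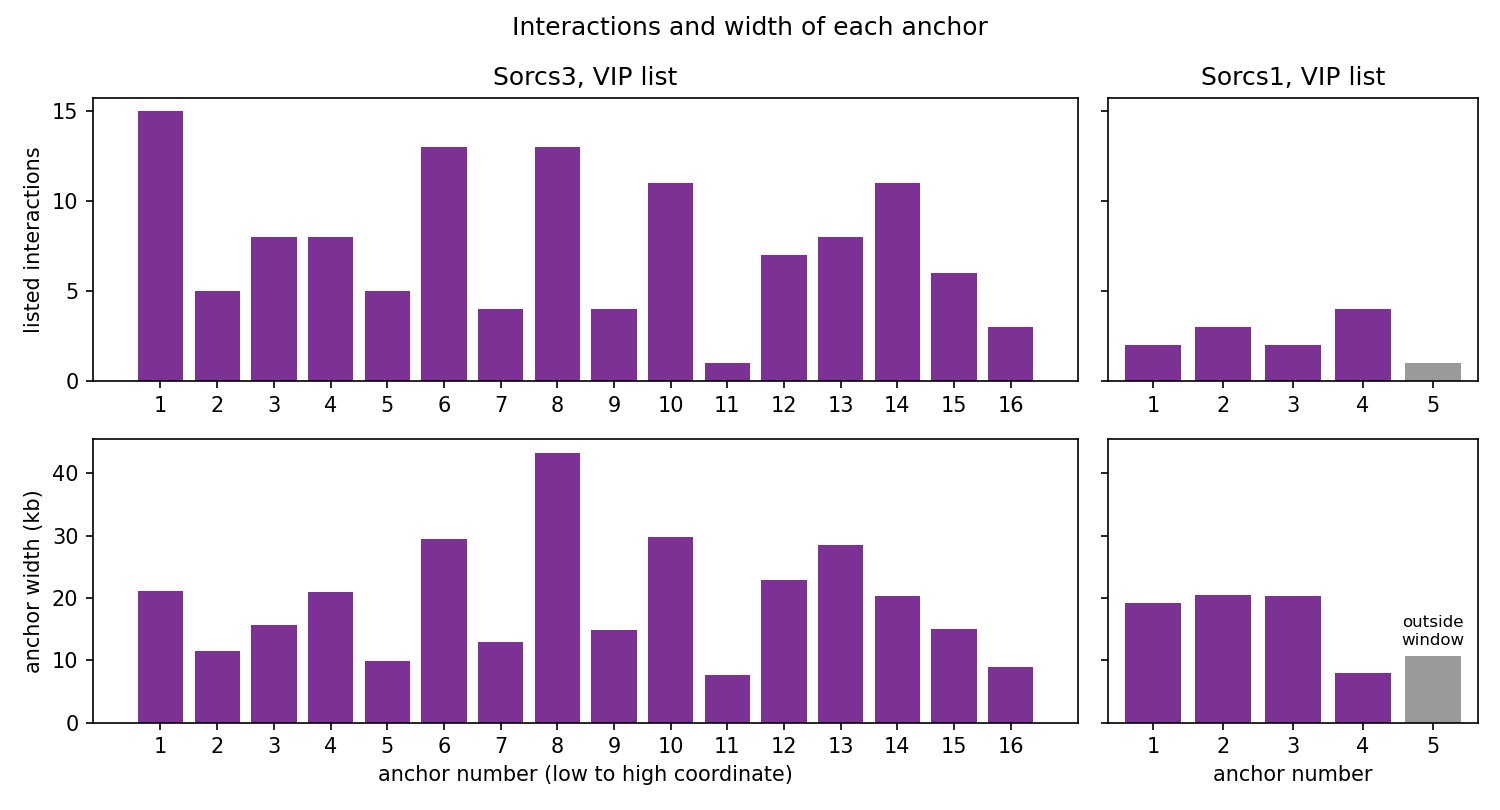
Bars give the number of listed VIP interactions (top) and the width in kb (bottom) of each anchor at Sorcs3 (left) and Sorcs1 (right), numbered from low to high coordinate, with the anchor outside the Sorcs1 window in grey. At Sorcs3 the first anchor has 15 interactions at 21.2 kb, and at Sorcs1 anchor 4 has 4 at 7.98 kb, the narrowest of the 5.

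Listed pairs made up 61 of the 120 possible pairs of Sorcs3 anchors, or 50.8% (exact binomial interval 41.6 to 60.1%). Without the first anchor the share was 46 of 105, or 43.8%. The share was 66.7% up to 50 kb, 52.9% from 50 to 100 kb, 35.1% from 100 to 200 kb, 56.1% from 200 to 400 kb and 57.1% of 7 pairs from 400 to 600 kb. Over all pairs of VIP anchors on a chromosome it was 47.8%, 33.5%, 21.0%, 24.9% and 17.7% in the same classes. The Sorcs3 shares are higher by construction, since the locus was picked for its many VIP interactions and its anchors form a single connected group, while the shares of the list also count pairs of anchors from different groups. Excluding the first anchor, the Sorcs3 shares were 64.7%, 52.9%, 29.4%, 45.5% and 25.0% (4 pairs). Of the 15 neighbouring pairs 11 were linked, and of the 28 pairs with 8 or more anchors between them 18 were linked.

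The distances at Sorcs3 ranged from 21.3 to 555 kb. Their median was 158 kb (order-statistic interval 109 to 258 kb), and that of the VIP list was 167 kb (157 to 177 kb), which lies inside the interval of Sorcs3. Of the 61 interactions, 12 spanned up to 50 kb, 22 spanned 50 to 200 kb, 23 spanned 200 to 400 kb and 4 more than 400 kb. Of these 4, 3 started at the first anchor, reaching 472, 520 and 555 kb, and the remaining interaction joined anchors 2 and 14 over 445 kb.

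The VIP interactions fall into 734 groups of anchors connected directly or through others, and 150 of these groups have 10 or more anchors. Sorcs3 was a group of its own, with 16 anchors and 61 interactions, the 18th highest number. Its linked share of 50.8% ranked 4th of the 150, whose median was 21.6%. This share restates the interaction count for which the locus was chosen, over its number of anchors, so the rank is a description. The 3 groups above it had 10 to 12 anchors, and smaller groups tend to have higher shares. Of the paths over 3 anchors, 65.6% were closed into triangles, against a median of 33.0%. This share also rests on the listed links, and how far it follows their number was not tested. Of the 150 groups, 12% had no SST anchor in their span. The 17 other such groups had at most 43 interactions and linked shares of 15.2 to 43.6%. Sorcs3 was chosen for many VIP and no SST interactions, so its place above these groups is a description too. An anchor linked to every other was found in 16% of the 150.

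**Figure D5:**
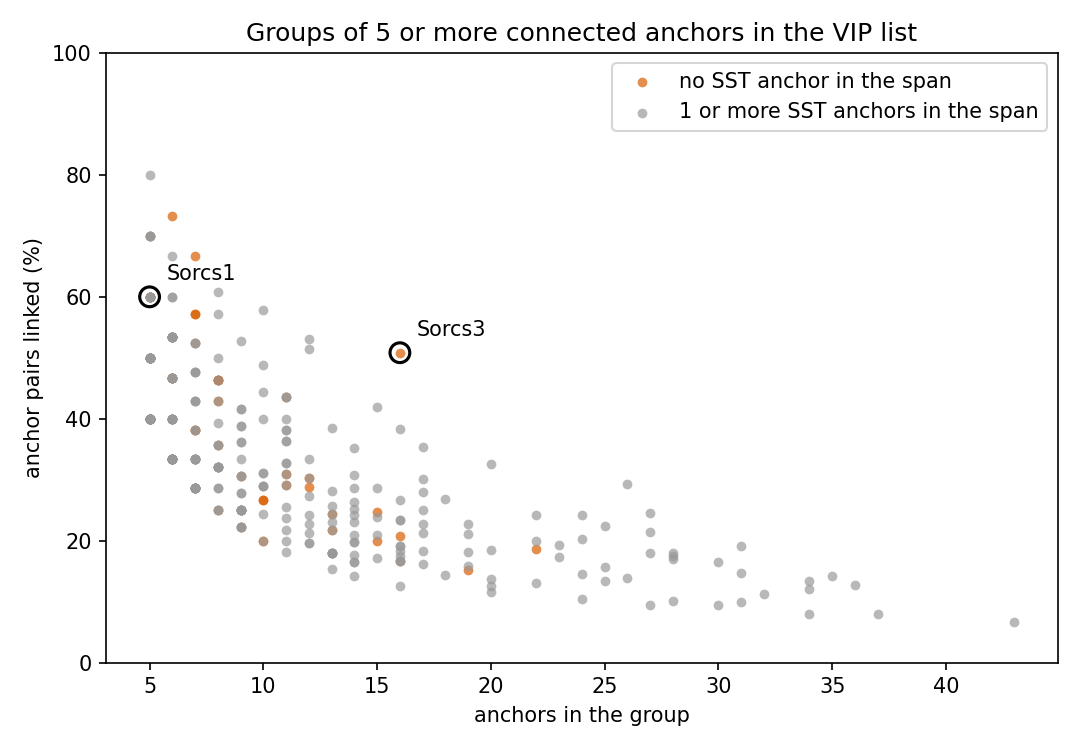
Each point is a group of 5 or more connected anchors of the VIP list, placed by its number of anchors (x axis) and the percentage of its anchor pairs that are linked (y axis), in orange where no SST anchor lies in its span and in grey otherwise. The circled Sorcs3 group, with 16 anchors and 50.8% of pairs linked, was chosen for its number of VIP interactions, and the circled Sorcs1 group has 5 anchors and 60.0%.

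Sorcs1 had a small set of contacts, both long and short. Its 6 interactions joined 5 anchors, 4 inside the window and 1 outside it. The anchor with the most was chr19:50747157-50755141, with 4 interactions, at the high-coordinate end of the anchors in the window. Sorcs1 is transcribed towards lower coordinates, so within the window this is the end on the side of the gene's start. Which anchor holds the start was not determined, and the anchor outside the window lies further to that side. The most linked anchor was linked to each of the other 4 anchors, although at 7.98 kb it was the narrowest of the 5. The anchors it met inside the window were chr19:50280669-50299827 at 461 kb, chr19:50316779-50337264 at 424 kb and chr19:50392570-50412921 at 348 kb. Its partner beyond the window, chr19:51217122-51227740, lay 471 kb away and started 367 kb above the window, and had no other interaction. In the RefSeq order of GRCm38.p6, the first genes above Sorcs1 are the non-coding RNA genes Gm26629 and Gm25644, and Ins1 is the first protein-coding one.

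The other 2 interactions at Sorcs1 were short. In order of coordinate, they joined anchors 1 and 2 over 36.8 kb and anchors 2 and 3 over 75.7 kb. Anchors 1 and 3, both linked to anchor 2 and to the most linked anchor, were not listed as linked to each other. Within the window 5 of 6 possible pairs were linked, or 83.3% (exact binomial interval 35.9 to 99.6%). The median distance was 386 kb, but with 6 values its interval spans their whole range of 36.8 to 471 kb and includes the VIP list median. Of the 55 VIP groups of 5 anchors, 74.5% had an anchor linked to all others and 27.3% had no SST anchor in their span. Sorcs1, at 60.0% of pairs linked, was above their median of 50.0%, and the shares of these groups ran from 40.0 to 80.0%. Its share restates its count of 6 interactions over 10 possible pairs, so a single interaction moves it by a wide step.

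At both loci the most linked VIP anchor met each other anchor of its group, which 16% of groups of 10 or more anchors and 74.5% of groups of 5 anchors also show. Its place at an end of the anchors in the window was not compared with other groups, and with anchors within 5 kb merged 2 Sorcs3 anchors tied for the most links. The loci differed in number, with 61 against 6 interactions, in reach, with 0 against 1 interaction leaving the window, and in cover, with 54.8% against 14.3% of the span of the anchors in the window inside an anchor. At Sorcs3 46 of the 61 interactions did not involve the most linked anchor, and at Sorcs1 2 of 6 did not. With 1 list, these differences carry no test.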

How the data were processed

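Coordinates of H3K27ac HiChIP interactions were analysed in cortical VIP and SST interneuron nuclei. The deposited lists have 6 columns without a header, the chromosome, start and end of both anchors, and hold no count, score or p-value. HiC-Pro and build mm9 are named in the submitters' processing notes. Which caller and threshold made the lists, how anchors were set and whether replicates were pooled are not given in the sources used. Each list belongs to replicate 1, and replicate 2 was not analysed here. Read depth is unknown. Threshold and depth can change how many interactions a list holds, and the division into anchors how many pairs.

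Interactions were assigned to the windows by either anchor with a 1 bp overlap, and called shared where both anchors overlapped those of a contact listed in the other cell type. Distances run between anchor midpoints. Coordinates are printed as deposited, and a start may be off by 1 bp if the files count from 0. Background windows were tiled from position 1 of each chromosome and counted by either anchor. The members, windows and settings were chosen with earlier results of these data known. Named anchors were the 5 with the most interactions at a locus, and named interactions were the longest, the shortest and those leaving the window; the least linked and last Sorcs3 anchors, the interaction over 445 kb and the window on chromosome 4 were added after their values were seen. The other VPS10 receptors, neurotrophin and retromer genes and cell type markers that had been listed could not be placed without an mm9 annotation. RefSeq tables of GRCm38.p6 gave gene order, strand and promoter sequences. Intervals are exact Poisson, exact Clopper-Pearson or order-statistic intervals at 95%, and no p-value was computed. The steps were tested on simulated lists. The software was scipy 1.17.1, networkx 3.6.1, numpy 2.4.6, matplotlib 3.10.9 and pandas 2.3.3 under Python 3.11.15.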

Additional observations from a re-analysis of the deposited data

How the results depend on the processing

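Of 46 alternative values, 24 were fixed by the SST anchors or the shortest VIP distance. The nearest SST anchor lay 1105 kb from a window, which fixes the SST and shared counts at 0, and no VIP member was shorter than 20 kb. Of the other 22, 17 stayed within 1.5 times the count or within the interval of a median or share, and 5 moved. Several of the 17 could not move either, so their staying is not a sign of stability. All Sorcs3 anchors lie inside the window and the next VIP anchors at least 1150 kb from it. Requiring both anchors, using midpoints or widening the window therefore could not change Sorcs3. At Sorcs1 no anchors lay within 5 kb of each other to be merged, and widening reached no uncounted interaction. With anchors within 5 kb merged, Sorcs3 had 27 VIP interactions, 9 anchors and 75.0% of pairs linked, and the cause of the higher share was not tested. Merging kept 44.3% of the Sorcs3 interactions and 67.9% of those of the whole VIP list, so the Sorcs3 count depends more on how anchors were divided. With distances of up to 200 kb, 34 VIP interactions remained at Sorcs3 and 2 at Sorcs1, since longer ones are left out by construction. The SST count was 0 in both windows also when they were widened by 1 Mb on each side, a setting chosen after seeing the data. No paired analysis was possible because the VIP and SST contacts come as 1 list each, which also leaves no replicate to omit. Depth limits each absence: whether an unlisted contact was absent or below the threshold was not tested.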

Other observations

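The stretch of 9.56 Mb without an SST anchor holds 2 further VIP interactions, both distant from the genes described. These joined chr19:53923702-53935282 with chr19:53965374-53981937 over 44.2 kb, and chr19:56534581-56552599 with chr19:56556681-56577252 over 23.4 kb.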
